A study of Mus musculus with 2 samples.

Results

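The cells described here are tumour cells with the highest share of transcripts from 5 genes, Slurp1, Qrfp, Nppb, Car6 and Cdsn. A cell barcode was kept where it had 300 genes or more and where UMIs (unique molecular identifiers, 1 per captured transcript) from mitochondrial genes took no more than 20%. Those with at least 1 Krt20 UMI and no Ptprc UMI formed a tumour gate of 8734 cells, out of 16465 barcodes in all. Members were the 10% of gate cells in which the 5 genes took the largest share of all UMIs, taken over both libraries together, which gave 873 cells. Of these, 534 lay in the control library and 339 in the serine/glycine-free library, and the other 7861 gate cells served as the comparison.

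Slurp1 encodes a small secreted protein of the Ly6/uPAR family that keratinocytes release and that acts on acetylcholine receptors. Nppb encodes the heart hormone B-type natriuretic peptide, Qrfp a neuropeptide of the hypothalamus, Car6 the secreted carbonic anhydrase of saliva, and Cdsn corneodesmosin, which holds together the outermost cells of the epidermis. All 5 products are secreted; Slurp1 and Cdsn are best known from keratinocytes, and the other 3 from other tissues.

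The study took subcutaneous tumours from mice on a control diet and from mice on a diet labelled -SG, which the series title gives as serine/glycine free. Each diet was 1 library of the 10x Genomics droplet assay with a matched T cell receptor library, and titles beginning CT and SG were read as the control and -SG diets. The labels name neither the tumour line nor a mouse strain, age or number of mice per library, and their extraction text speaks of human heart tissue although organism, source and gene symbols are those of the mouse. With 1 library per diet there was no replicate check, so no test was made between diets or between cell groups. All intervals below are exact 95% intervals that cover counting error only.

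The control library held 8466 barcodes and the serine/glycine-free library 7999, of which 8262 and 7913 were kept and 4121 and 4613 passed the gate. The libraries had 104 barcodes in common, 33 of them in the gate and 0 among members. Members and other gate cells were sequenced to like depth, with medians of 25074 and 25087 UMIs per cell in the control library and 22440 and 23289 in the serine/glycine-free library. The label was checked against other markers. Krt20, a keratin of gut, urothelial and Merkel cells, was required by the gate. The other 12 listed epithelial keratins summed to 23.4 CPM (the UMIs of a gene scaled to a common total, counts per 1e6) in control members and 30.4 CPM in serine/glycine-free members, and the 18 listed intestinal genes to 2.53 and 3.09 CPM. Vim, the mesenchymal intermediate filament vimentin, stood at 8061 and 8848 CPM. Apart from Krt20, members had few UMIs of keratin or intestinal genes, and they are called by their leading genes here.

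Members made up 13.0% of gate cells in the control library (11.9 to 14.02%) and 7.35% in the serine/glycine-free library (6.61 to 8.14%). The ratio of shares was 0.567 (0.493 to 0.651). It stayed below 1 under all 14 alternatives tried for it, but its size moved. It was 0.283 when each score gene had equal weight, 0.408 without Slurp1 in the score and 0.691 when each cell was scored on 5000 UMIs. The score had no gap at the threshold: the lowest member stood at 584.8 CPM of score genes and the next cell below it at 584.1. Within 10% of the threshold lay 159 members and 174 other cells, so the threshold cuts through a run of like scores. A cut at a fixed share of cells cannot tell whether members are a separate type, and this was not tested. The median control member had 21 score UMIs and the median serine/glycine-free member 19, while 25 of all members had fewer than 5. At the other end, 16.3% of gate cells in the control library and 28.0% in the serine/glycine-free library had no score UMI. Those cells were shallower, with medians of 17605 and 15385 UMIs, and the part of depth in their zero was not tested.

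**Figure D1:**
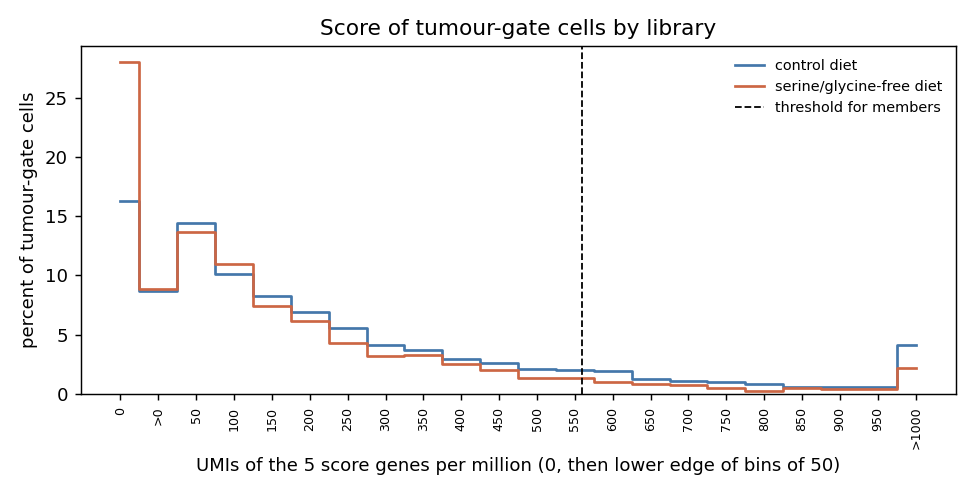
Share of tumour-gate cells (percent, vertical axis) by CPM of the 5 score genes together (horizontal axis, first a bin for 0, then bins of 50), for the control library (blue) and the serine/glycine-free library (orange). The score falls away without a gap at the threshold (dashed, 584.8), and the bin at 0 holds 16.3% of cells in the control library and 28.0% in the other.

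Each of the 5 genes chose the cells, so their levels in members are given as a description. Slurp1 stood at 388 CPM in control members (378 to 399) against 50.5 in the other control gate cells, and at 510 (494 to 526) against 62.5 in the serine/glycine-free library. It was detected in 88.2% of control members and 92.0% of serine/glycine-free members. Nppb stood at 304 CPM in control members against 35.4 in the others, and at 252 against 29.9 in the serine/glycine-free library. Its counts were uneven: the median control member had 157 CPM of Nppb and the highest had 148 UMIs. Qrfp stood at 186 CPM in control members against 62.4, and at 127 against 44.04. Of the 5 genes it was the most widespread outside members, with a UMI in 61.6% of the other gate cells on the control diet and 47.0% of those on the serine/glycine-free diet.

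Car6 stood at 60.8 CPM in control members against 14.4 in the others, and at 16.2 against 1.65 in the serine/glycine-free library. Cdsn stood at 33.0 against 7.62 CPM in the control library and at 6.18 against 1.49 in the serine/glycine-free library. Most members lacked both genes: Car6 was detected in 31.3% and Cdsn in 32.6% of control members, and in 6.19% and 7.67% of serine/glycine-free members.

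**Figure D2:**
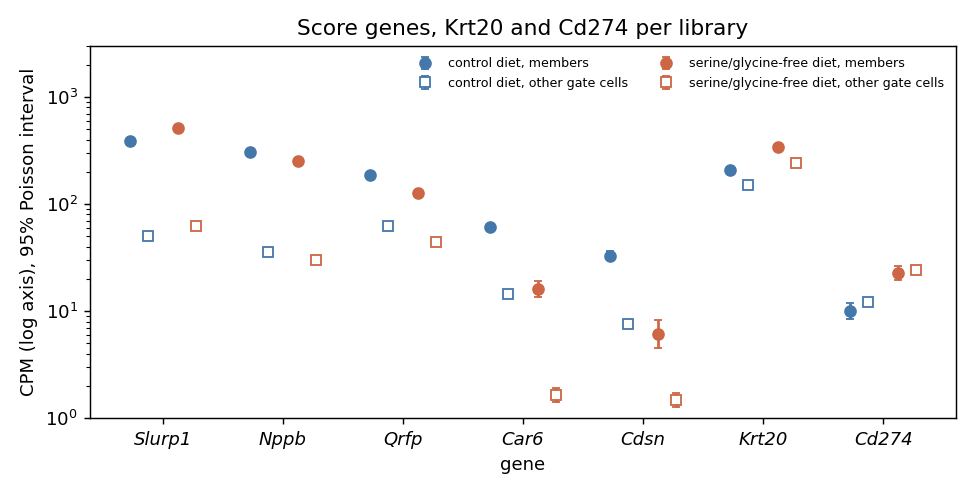
CPM (vertical axis, log scale, bars are exact 95% Poisson intervals) of the 5 score genes, Krt20 and Cd274 (horizontal axis) in members (filled) and other gate cells (open) of the control library (blue) and serine/glycine-free library (orange). Car6 in other serine/glycine-free gate cells, at 1.65 CPM, and Cdsn there, at 1.49, are the lowest values drawn, while Cd274 is nearly level between members and other cells of one library.

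Across gate cells, the genes fell into a group of 3 and a pair. Pearson's r across the 4121 control gate cells was 0.30 for Slurp1 with Qrfp, 0.29 for Slurp1 with Nppb and 0.22 for Qrfp with Nppb. Car6 and Cdsn reached 0.53. The 6 pairs across these groups ranged from 0.01 for Slurp1 with Car6 to 0.15 for Nppb with Cdsn. In the 4613 serine/glycine-free gate cells the corresponding values were 0.26, 0.22 and 0.16 within the group of 3, 0.40 for Car6 with Cdsn, and 0.02 to 0.08 across. These correlations describe cells of 1 library that share its depth and free RNA, and have no p-value. Slurp1 alone had the highest UMI count of the 5 genes in 45.1% of members on the control diet and 64.3% on the serine/glycine-free diet. Nppb did so in 26.6% and 23.3%, Qrfp in 15.4% and 8.55%, and Car6 in 5.99% and 1.47%. All 5 genes were found together in 82 members, 4 of them in 121, 3 in 405, 2 in 216 and only 1 in 49.

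Each gene was also measured in cells chosen without it. When the top 10% of gate cells was taken again on the other 4 genes, the gene left out was higher in those cells in both libraries for all 5 genes. Nppb was 2.90 times as high as in the remaining control gate cells (2.76 to 3.05) and 2.75 times in the serine/glycine-free library (2.55 to 2.96). Slurp1 was 2.57 and 2.15 times as high, Qrfp 1.99 and 1.73 times, and Cdsn 2.55 and 2.88 times. Car6 had the lowest control ratio, 1.47 (1.31 to 1.65), and a ratio of 2.42 (1.74 to 3.30) in the serine/glycine-free library, where it was read in few cells. All 10 intervals lay above 1, also under the 7 alternatives tried for them. The 5 genes were set with earlier results of these data known, so these ratios describe the set and are no independent test of it. When each UMI was assigned at random to 1 of 2 parts, with cells chosen on 1 part and measured on the other, the ratios were 6.61 and 6.32 for Slurp1, 7.53 and 6.62 for Nppb and 2.51 and 2.65 for Qrfp. Here the genes measured are those that chose the cells, so these ratios too are a description.

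Free RNA was judged in immune cells, those with Ptprc and no Krt20, which should lack these genes. Slurp1 had a UMI in 1.94% of 1082 control immune cells (median 6870 UMIs) and in 1.75% of 1030 serine/glycine-free ones (median 8387 UMIs), against 47.3% and 46.4% of gate cells. With every cell thinned to 5000 UMIs, which left out 404 and 305 immune and 57 and 74 gate cells, the shares were 0.885% and 1.38% in immune cells and 24.5% and 24.0% in gate cells. Qrfp had the highest immune share, a UMI in 3.60% and 6.12% of immune cells against 65.4% and 49.1% of gate cells, and 2.21% and 3.72% against 27.9% and 18.99% after thinning. For Car6 in the serine/glycine-free library the thinned shares were 0.138% and 0.749%.

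The genes do not neighbour each other: in GRCm38.p6, Slurp1 lies at chr15:74726644-74728023, Qrfp at chr2:31806168-31810580, Nppb at chr4:147985786-147987205, Car6 at chr4:150187015-150201135 and Cdsn at chr17:35543101-35557180. The genes beside them ranged widely. Eno1, the glycolytic enolase next to Car6, stood at 4064 CPM in control members against 3550 in the others, 2510039O18Rik next to Nppb at 53.4 against 50.8, Them6 next to Slurp1 at 19.9 against 28.7, and Abl1 next to Qrfp at 18.8 against 19.2. Nppa, the atrial hormone gene next to Nppb, was at 0 CPM in members of both libraries, and Psors1c2 beside Cdsn was at 0.149 and 0 CPM. Lypd2, the Ly6 family gene next to Slurp1, had 0.149 and 0.773 CPM.

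The promoters of 4 score genes are shown, Nppb and Qrfp of the group of 3 described above and Car6 and Cdsn of the pair. Slurp1, also of that group, had no entry among the promoter sequences used, so its promoter was not searched. Each run is RefSeq sequence of GRCm38.p6, in the gene's direction, from 250 bases before to 50 after an annotated start. Capitals mark CATTCC or its complement GGAATG, the letters bound by TEAD factors, and TATAAA, searched on both strands. Qrfp lies on the minus strand at chr2:31810531-31810830, Nppb on the plus strand at chr4:147985650-147985949, Car6 on the minus strand at chr4:150201086-150201385, and the first of 2 Cdsn starts on the plus strand at chr17:35542851-35543150.
Qrfp: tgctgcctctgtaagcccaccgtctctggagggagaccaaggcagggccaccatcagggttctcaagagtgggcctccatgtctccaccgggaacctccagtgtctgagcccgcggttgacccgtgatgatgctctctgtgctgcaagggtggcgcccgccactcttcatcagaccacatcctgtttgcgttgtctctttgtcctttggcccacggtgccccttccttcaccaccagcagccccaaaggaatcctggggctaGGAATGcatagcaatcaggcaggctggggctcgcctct
Nppb: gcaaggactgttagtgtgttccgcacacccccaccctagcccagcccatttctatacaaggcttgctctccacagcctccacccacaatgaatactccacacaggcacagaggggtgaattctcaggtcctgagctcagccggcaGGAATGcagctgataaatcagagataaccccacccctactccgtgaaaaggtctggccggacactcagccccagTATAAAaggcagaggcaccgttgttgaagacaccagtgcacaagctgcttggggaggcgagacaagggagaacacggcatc
Car6: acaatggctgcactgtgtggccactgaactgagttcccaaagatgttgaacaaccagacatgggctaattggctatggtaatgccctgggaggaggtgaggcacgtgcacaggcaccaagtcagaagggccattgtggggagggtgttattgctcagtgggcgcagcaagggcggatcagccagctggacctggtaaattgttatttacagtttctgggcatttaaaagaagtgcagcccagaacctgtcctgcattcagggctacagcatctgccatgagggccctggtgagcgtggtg
Cdsn: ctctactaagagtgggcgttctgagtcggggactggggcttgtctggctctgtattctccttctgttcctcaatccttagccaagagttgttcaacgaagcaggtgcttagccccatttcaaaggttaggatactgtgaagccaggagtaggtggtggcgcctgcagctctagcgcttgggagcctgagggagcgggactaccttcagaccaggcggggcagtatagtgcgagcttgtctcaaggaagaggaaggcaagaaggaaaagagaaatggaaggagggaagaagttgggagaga
Qrfp and Nppb each hold 1 GGAATG, beginning 12 bases after the start in Qrfp and at base -105 in Nppb. Nppb also holds TATAAA at base -31. Neither motif is in the Car6 run or in the runs of either Cdsn start. The motif is common: 14.7% of 32851 promoters of this length hold CATTCC and 13.6% hold TATAAA, on either strand. The 2 motifs do not overlap in these runs, and they were picked after several had been looked at. Another motif, TGANTCA, the site of AP-1 factors, is in 7.81% of promoters. It lies at base -98 of the second Il11 start, base -69 of Plaur and base -34 of the second Ghr start, but in none of the 4 runs shown. These genes were higher in members, as described next. So were Ceacam1, Klk10, Pthlh and Timp1, whose runs lack it, as do the first starts of Il11 and Ghr. Among these genes outside the score, Timp1 holds GGAATG at base -247, and Il11, Plaur, Ghr, Ceacam1, Klk10 and Pthlh hold neither CATTCC nor GGAATG. The complement of TATAAA lies at base -188 of the second Ghr start. Cryab, also higher in members, had no entry among the promoter sequences used. A match describes letters, not binding.

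Genes outside the score were compared in members and other gate cells of each library by the log2 ratio of CPM + 5, among those whose mean reached 20 CPM. They were called where the ratio passed 1.5-fold in the same direction in both libraries. Of 5419 genes, 35 were higher (0.646%) and 58 lower (1.07%), while the median gene stood at -0.01 in both libraries. The choice of cells used this contrast, so these counts describe how members differ and support nothing else. The mean was over members and other gate cells of both libraries. Ceacam1 and Chac1, described below, were under 20 CPM in the other gate cells and reached it only through members. Fgfr1, a lower gene, reached it only through the other gate cells.

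The genes farthest up included secreted and surface proteins. Cryab, the small heat shock protein alpha B-crystallin, stood at 167 CPM in control members against 47.3 in the others, and at 253 against 82.9 in the serine/glycine-free library, log2 ratios of 1.72 and 1.55. It was called alone on its list: the heat shock list had 9 measured genes, of which 5 lay below 0 in both libraries. Ceacam1, an adhesion receptor of epithelia, stood at 45.2 against 13.7 CPM and at 39.0 against 13.1. Il11, a cytokine of the interleukin-6 family, stood at 63.1 against 24.3 CPM and at 57.2 against 18.0. The CPM ratios of members over other gate cells were 3.53 and 3.05 for Cryab, 3.30 and 2.99 for Ceacam1, and 2.60 and 3.17 for Il11.

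Klk10, a secreted kallikrein of squamous epithelia, stood at 93.7 against 34.9 CPM and at 44.3 against 18.7. Pthlh, the parathyroid hormone-related peptide, had log2 ratios of 1.13 and 0.87, Ghr, the growth hormone receptor, 0.88 and 0.80, and Tubb3, a neuronal beta tubulin, 0.81 and 1.13. Wwc1, the Hippo pathway scaffold KIBRA, had 0.87 and 0.93. Plaur, the urokinase receptor and like Slurp1 a member of the Ly6/uPAR family, stood at 499 against 293 CPM and at 335 against 191. Timp1, an inhibitor of matrix metalloproteinases, reached 1772 against 1000 CPM and 1101 against 651. The others among the 15 farthest up were 1700012B09Rik, Gm49774, Ptpn22, Pold4 and Dpep2, whose log2 ratios lay between 0.78 and 1.12 in both libraries.

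**Figure D3:**
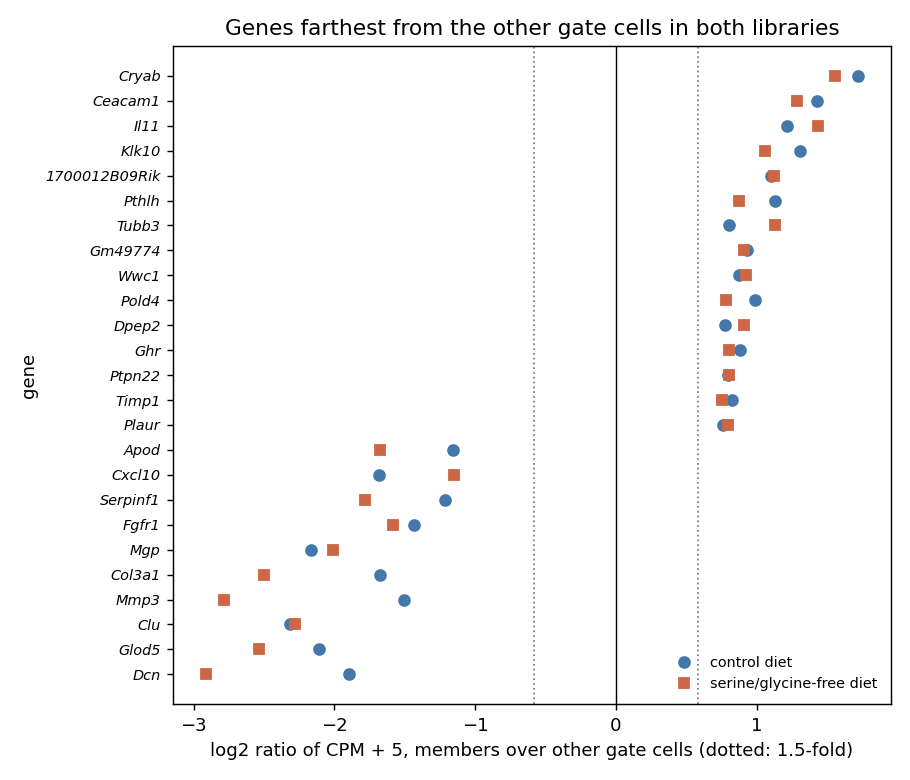
Log2 ratio of CPM + 5, members over other gate cells (horizontal axis), for the 15 genes farthest up and the 10 farthest down (vertical axis), in the control library (blue circles) and the serine/glycine-free library (orange squares). Cryab lies farthest right, at 1.72 and 1.55, and Dcn reaches -2.91 in the serine/glycine-free library; dotted lines mark 1.5-fold.

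Of genes of the cornified envelope and keratinocyte differentiation, most were at 0 and 1 stood far above the other gate cells. Cnfn, which encodes cornifelin of the cornified envelope, stood at 24.4 CPM in control members against 1.58 in the others, and at 29.0 against 2.68 in the serine/glycine-free library. These are ratios of 15.5 (12.7 to 18.9) and 10.8 (9.04 to 12.9). Cnfn had a UMI in 107 of 534 control members (20.04%) against 2.90% of the others, and in 63 of 339 serine/glycine-free members (18.6%) against 3.56%. In the shallower immune cells it had a UMI in 2 of 1082 and 1 of 1030. It lay under the limit of 20 CPM on the mean of all groups, and was singled out after its values were seen. Of the list's 48 genes in the matrix, 34 were at 0 in control members and 37 in serine/glycine-free members. Without Lgals7, the list summed to 38.8 CPM in control members against 11.4 and to 38.5 against 12.6, and in members most of it was Cnfn. Sbsn, at low counts, stood at 4.99 against 1.44 CPM in the control library. In the serine/glycine-free library it stood at 1.55 against 0.752, with 12 UMIs in members. Crct1 stood at 3.05 against 2.84 CPM and at 1.93 against 2.78. Lgals7, galectin-7, was the only listed gene over that limit, at 884 against 748 CPM in the control library and 733 against 619 in the serine/glycine-free library, and it was not called. Of 17 squamous kallikreins and serpins only Klk10 was over the limit. Skin keratinocyte markers summed to 18.98 and 18.2 CPM in members against 20.003 and 20.3 in the others, and 4 of those 7 markers were at 0 in members of each library.

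Other genes under the limit of 20 CPM but over 5 CPM numbered 3956, of which 24 were at least 1.5-fold higher in both libraries and 57 lower. After Cnfn, those farthest up were Dynap, at 12.7 against 4.13 CPM and 12.8 against 4.06, and Ces1f, a carboxylesterase, at 12.4 against 2.12 and 8.12 against 2.30.

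Among fixed pathway lists, growth factor and amino acid response genes lay above their level in the other gate cells, but not they alone. Of 13 measured glycolysis genes 10 lay above 0 in both libraries, with medians of 0.19 and 0.08. Of 12 measured cholesterol and lipid synthesis genes 9 did, with medians of 0.09 and 0.33. The shares of all 5419 genes above 0 and below 0 in both libraries were not counted, and the median gene stood at -0.01 in both. List counts above or below 0, here and in the other paragraphs, thus have no base share beside them and only describe the lists. Of 14 measured genes for ligands of the EGF receptor and feedback of MAP kinase signalling, 10 lay above 0 in both libraries and 3 were called higher, with median log2 ratios of 0.37 and 0.33. The 3 were Ereg, the ligand epiregulin, at 217 against 127 CPM and 155 against 101, Dusp5, a phosphatase for ERK, and Epha2, an ephrin receptor. Hbegf, another ligand, stood at 366 against 240 CPM and 288 against 196 and was not called. The list's top 10% of gate cells held 19.9% of control members against 8.81% of other control cells, and 21.2% against 8.87% in the serine/glycine-free library.

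Of 12 measured genes of the Atf4 response, which cells mount when amino acids run short, 11 lay above 0 in both libraries, with medians of 0.40 and 0.32. Chac1, a glutathione-degrading enzyme, stood at 37.4 against 15.7 CPM and 19.6 against 9.68, and Trib3, a pseudokinase, at 37.4 against 20.8 and 21.1 against 11.8. These 2 were called. Asns, asparagine synthetase, had log2 ratios of 0.67 and 0.57 and was not. Of 12 measured genes of serine, glycine and one-carbon metabolism, 9 lay above 0 in both libraries and 0 were called, with medians of 0.27 and 0.21. Phgdh, the first enzyme of serine synthesis, stood at 689 against 521 CPM and at 522 against 410. Aldh1l2, a mitochondrial folate enzyme outside that list, was called higher, at 48.1 against 27.4 and 32.7 against 19.9.

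The 10 genes farthest down held 2 of the fixed matrix list, Dcn and Col3a1, and several other secreted proteins. Dcn, the proteoglycan decorin, stood at 73.1 CPM in control members against 286 in the others, and at 65.7 against 528 in the serine/glycine-free library. Clu, the secreted chaperone clusterin, stood at 12.0 against 79.6 CPM and at 14.2 against 88.2. Mgp, matrix Gla protein, stood at 12.1 against 71.4 CPM and at 12.1 against 63.8. Col3a1, a fibrillar collagen, had log2 ratios of -1.67 and -2.50, and Mmp3, stromelysin, -1.51 and -2.78. Glod5, Fgfr1, Serpinf1 and Apod, and Cxcl10, a chemokine induced by interferon, made up the rest of the 10, from -1.15 to -2.53. Of 9 measured matrix genes, 8 lay below 0 in both libraries and 3 were called lower, Dcn, Col3a1 and Col6a1.

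Dcn was most abundant in gate cells without a score UMI, at 811 and 1367 CPM. Against other gate cells with at least 1 score UMI only, a comparison added after the data were seen, 34 genes were called lower and 21 higher. The 7 fibroblast markers summed to 508 CPM in control members against 764 in the others, and to 535 against 1043 in the serine/glycine-free library. Dcn is 1 of them and fell far more than the collagens Col1a1 and Col1a2. Col1a2 stood at 342 against 359 CPM and 378 against 388, and Col1a1 at 76.7 against 83.4 and 74.5 against 87.0. Of the 7 markers, 0 and 1 were at 0 in members. Macrophage markers summed to 22.8 against 66.1 CPM and 41.0 against 55.6. The part of stromal cells or their RNA in these differences was not tested. Endothelial, neutrophil, B, T and NK cell markers stood at 0.670 CPM or less in members of either library, and T cell receptor contigs were found in 1 of 534 control members and in 0 of 339 serine/glycine-free members, which allows a share of up to 0.885%.

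Mitotic genes were lower as a list. All 20 measured genes of G2 and mitosis lay below 0 in both libraries, with medians of -0.68 and -0.53, and 8 were called lower. Cdc20, an activator of the anaphase-promoting complex, stood at 96.1 against 168 CPM and 59.9 against 109, Ccnb1, cyclin B1, at 46.5 against 87.3 and 33.0 against 59.3, and Cenpf, a kinetochore protein, at 79.8 against 179 and 65.7 against 126. The 15 measured S phase genes had medians of -0.06 and 0.11, and 0 were called. Without the 10% of gate cells highest in mitotic genes, 34 genes were called higher and 47 lower.

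Members were less frequent than other cells in some subsets of the gate and more frequent in others. The 10% of gate cells highest in G2 and mitosis genes held 5.62% of control members against 13.7% of other cells, and 3.24% against 8.002% in the serine/glycine-free library. The 10% highest in matrix genes held 1.12% against 6.83%, and 1.47% against 14.4%. The 10% highest in Afp, Selp and Dkk2 held 4.49% against 15.9%, and 2.65% against 6.32%. A Car9 UMI was found in 8.99% against 16.3%, and in 18.6% against 27.0%. Car9 is a hypoxia gene, but the 10% highest in the hypoxia list held 5.06% against 4.46%, and 15.9% against 14.8%. Of 17 measured hypoxia genes, 7 lay above 0 in both libraries and 4 below, and Ndrg1 had log2 ratios of 0.998 and 0.53. The 10% highest in S phase genes held 15.4% against 12.5%, and 8.85% against 7.28%, with overlapping intervals in both libraries. The 10% highest in type I interferon genes held 6.93% against 6.997%, and 17.99% (14.1 to 22.5%) against 12.3% (11.3 to 13.3%). The 10% highest in Atf4 response genes held 19.5% of control members against 7.97%, and 18.9% against 9.80%.

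Levels outside the score moved along it by steps and not only at the threshold. In the control library Ceacam1 went from 5.44 CPM in cells without a score UMI through 18.0 at percentiles 50 to 80 to 50.8 in the top 5%. Il11 went from 11.5 through 28.7 to 73.7 CPM. Cryab went from 41.0 through 52.6 to 183 CPM. Dcn went the other way, from 811 through 160 to 47.2 CPM, and in the serine/glycine-free library from 1367 through 223 to 57.4.

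**Figure D4:**
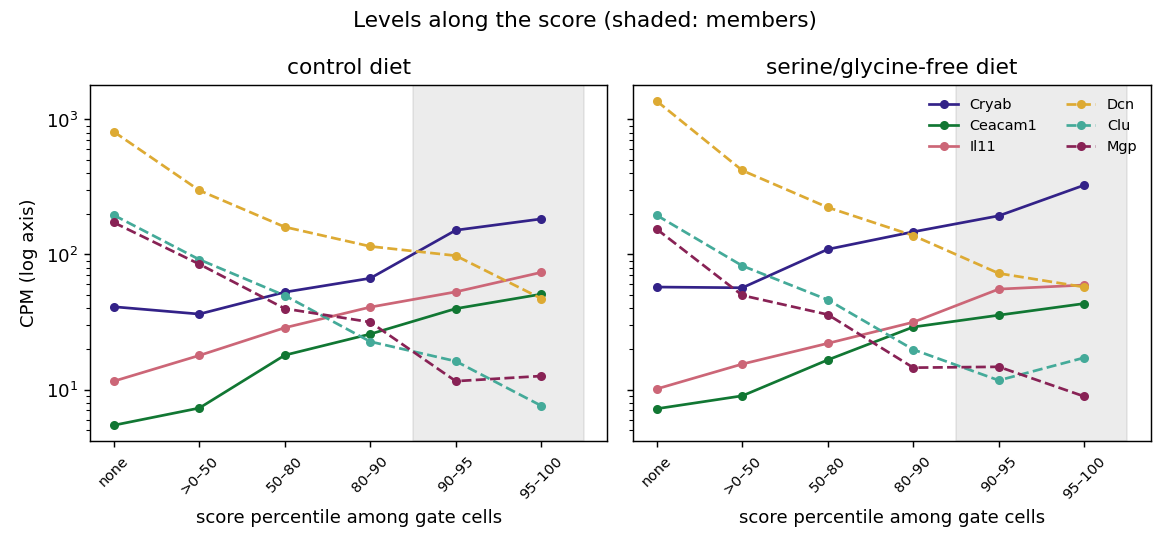
CPM (vertical axis, log scale) of 3 genes higher in members (solid) and 3 lower (dashed) in summed cells of each range of score percentile (horizontal axis), for the control library (left) and the serine/glycine-free library (right); shading marks members. Ceacam1 rises from 5.44 to 50.8 CPM in the control library while Dcn goes from 811 to 47.2.

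Members lay near each other also by genes outside the score. Among the 15 nearest neighbours of a cell in the first 30 principal components of 2000 variable genes, without the score genes and Krt20, members took 32.8% on average around control members and 8.11% around other control cells. In the serine/glycine-free library they took 19.2% and 5.42%. Few members sat mostly among their own kind: at least 50% of neighbours were members for 111 of 534 control members and 8 of 339 serine/glycine-free members.

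Within members, cells with and without Car6 and Cdsn differed. Both genes were detected in 121 control members (22.7%, 19.2 to 26.4%) and in 12 serine/glycine-free members (3.54%, 1.84 to 6.10%), and neither in 314 and 304. Control members with both had 77.6 CPM of Cryab, against 221 in those with neither. The other score genes are not compared here, since the choice of members ties them to Car6 and Cdsn. Il11 went the other way, at 87.5 against 49.0 CPM, as did Timp1, at 2128 against 1539, and Plaur, at 591 against 443. Pthlh stood at 53.8 against 103 CPM. Cells with both were deeper, with a median of 28512 UMIs against 23147, and the part of depth was not tested. With 12 such cells in the serine/glycine-free library, Il11 stood at 139 against 53.9 CPM and Cryab at 144 against 250.1 there.

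Between diets, the score genes did not move together. Over the whole gate, which the choice of members did not affect, Slurp1 was level, with a ratio of serine/glycine-free over control of 1.003 (0.976 to 1.03). Qrfp was at 0.639 and Nppb at 0.654 of the control level. Car6 was at 0.131 (0.115 to 0.147) and Cdsn at 0.167 (0.144 to 0.194). Krt20 went the other way, with a ratio of 1.57, and the gate passed 49.9% of kept control cells and 58.3% of kept serine/glycine-free cells. With no Krt20 requirement, members took 12.3% and 7.56% of Ptprc-negative cells, a ratio of 0.613. Within members, chosen at 1 threshold for both libraries, the ratio was 1.31 for Slurp1, 0.829 for Nppb, 0.683 for Qrfp, 0.267 for Car6 and 0.187 for Cdsn.

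In members, 132 of 5392 genes (2.45%) lay at least 1.5-fold above the control library on the serine/glycine-free diet, and 63 (1.17%) lay below it by that factor. In the other gate cells the counts were 101 (1.85%) and 36 (0.659%) of 5460. The median log2 ratio was -0.09 in both. Higher genes led with Ccn2, a YAP and TGF-beta target, at 12.7 CPM in control and 73.4 CPM in serine/glycine-free members. The metallothioneins Mt2, at 632 and 2741 CPM, and Mt1, at 2010 and 7406, followed, with the stress and glucocorticoid response genes Ddit4, Cebpd and Sgk1, the chemokine Cxcl10 and Spsb1. Their log2 ratios lay between 1.65 and 2.15 in members and between 1.38 and 2.11 in the other gate cells. Genes compared in members needed a mean of 20 CPM over both libraries, which Ccn2 and Spsb1 reached only through the serine/glycine-free library. Car6 and Angptl6, among the lower genes, reached it only through the control library. By list, 8 of 13 measured interferon-gamma response genes, 7 of 10 type I interferon genes, 6 of 13 immediate early genes and 4 of 12 MHC class I genes were higher, and 0 of these were lower. Their median log2 ratios in members were 0.69, 0.67, 0.52 and 0.54. The other gate cells moved the same way, with medians of 0.50, 0.42, 0.54 and 0.34. Of the 132 higher genes, 130 had the same sign in the other gate cells and 67 also passed 1.5-fold there. Of the 63 lower genes, 62 and 23 did.

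Among genes that reached a mean of 20 CPM in members, Car6 was farthest down, at a log2 ratio of -1.63. Cdsn, under that limit, was at -1.77. Both are score genes that chose the members, so these values are tied to that choice. Score genes were not left out of the 5392 genes, and Car6 is among the 63 lower. Angptl6, a secreted angiopoietin-like protein, stood at 42.3 and 11.5 CPM, Klk10 at 93.7 and 44.3, and Slc39a14, a zinc transporter, at 66.5 and 30.4. Tenm4, Ndst4, Gm45716 and Serpinf1 were the others of the 8, from -0.99 to -1.14. For Slc39a14 the other gate cells stood at 37.6 and 29.2 CPM, a log2 ratio of -0.32 against -1.01 in members, and for Angptl6 at 19.2 and 8.19 CPM. Of the serine and one-carbon list 0 of 12 genes were called in either direction, with a median of -0.27 in members and -0.35 in the other gate cells.

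Cd274, the gene for PD-L1, which the series title names, was low and nearly level between members and other gate cells. It stood at 10.1 CPM in control members against 12.1 in the others, a ratio of 0.837 (0.696 to 1.001), and at 22.9 against 24.0 in the serine/glycine-free library, a ratio of 0.956 (0.817 to 1.11). Between libraries its ratio was 2.27 (1.80 to 2.85) in members and 1.98 (1.85 to 2.13) in the other gate cells.

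**Figure D5:**
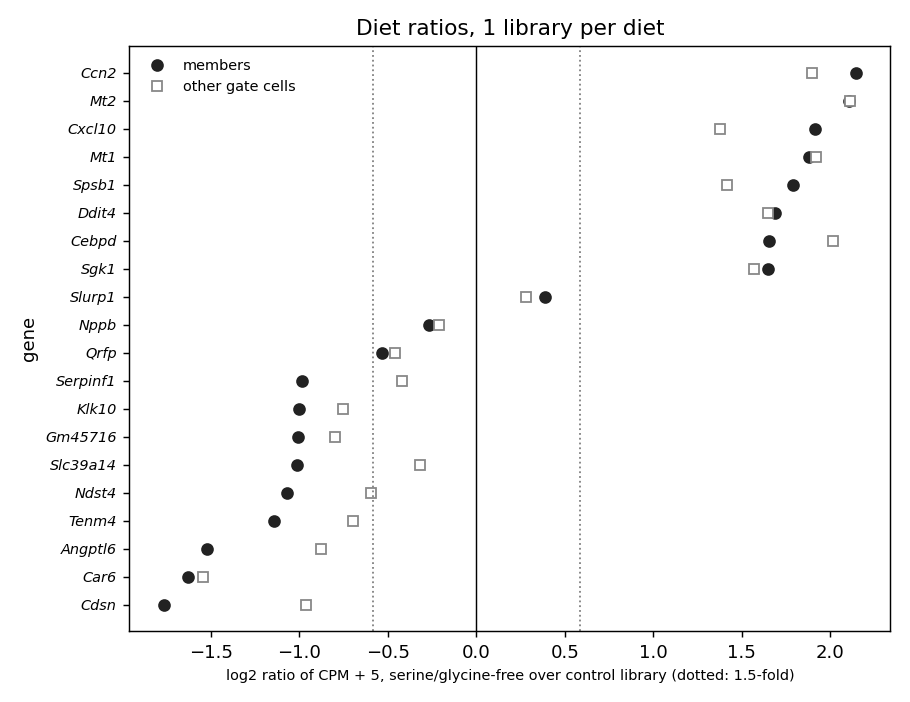
Log2 ratio of CPM + 5, serine/glycine-free over control library (horizontal axis), for the score genes and the 8 genes farthest up and 8 farthest down in members (vertical axis), in members (filled) and other gate cells (open). Ccn2 reaches 2.15 and Mt2 2.11 in members, while Slurp1 lies right of 0 and Car6 at -1.63; each diet is 1 library.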

How the data were processed

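The files deposited by the authors give raw UMI counts for each gene in each cell barcode. They came from Cell Ranger 7.1.0 per the file headers. Version 2.2.2 and the build mm10 stand in the submitters' processing notes. Only cell barcodes called by the authors were in them. The deposited contig tables were used for receptor contigs only. The members and gene lists were chosen with earlier results of these data known.

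Barcodes, gate and score followed the thresholds in the text. No doublet caller was run; leaving out the 5% of gate cells with most UMIs was an alternative. UMIs of all genes were summed per library over members and over other gate cells and scaled to CPM. T cell receptor and immunoglobulin genes were left out of the genes compared. Compared genes needed a mean of 20 CPM and 30 UMIs, and calls needed 1.5-fold of CPM + 5. Named genes were the 15 farthest up and 10 farthest down in both libraries, 8 each way between diets, up to 4 from each of 34 lists, the score genes, Krt20, Cd274 and cell type markers; others named were chosen after their values were seen. Intervals were Clopper-Pearson for shares, Poisson for CPM and conditional binomial for ratios. The steps were tested on simulated data. Python 3.11.15, numpy 2.4.6, scipy 1.17.1, pandas 2.3.3, scikit-learn 1.9.0 and matplotlib 3.10.9 were used. Promoter sequences were those of RefSeq, GRCm38.p6.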

Additional observations from a re-analysis of the deposited data

Results flagged for a closer look

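Mmp3 moved in opposite directions between diets in members and in the other gate cells. Its log2 ratio of serine/glycine-free over control was -0.30 in members, from 10.6 to 7.73 CPM, and 0.98 in the other gate cells, from 39.5 to 82.5 CPM. With 1 library per diet the difference was not tested.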

How the results depend on the processing

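No paired analysis was possible because each diet has 1 library. The held-out result and the named genes kept their direction under every alternative tried for them. Values of the 25 genes compared with other gate cells were means of both libraries, and 619 of 625 stayed past 1.5-fold. Between diets 335 of 336 did. The filters of 5 and 50 CPM and the call at 2-fold leave these values unchanged, so those settings could not move them. A call needed 1.5-fold in each library. On 5000 UMIs, 12 of the 35 higher genes and 34 of the 58 lower genes kept their call. The ratio of member shares moved to 0.685 with the top 20% of cells, 0.691 on 5000 UMIs, 0.283 at equal gene weights and 0.408 without Slurp1. Genes higher in members, 35, became 62 with the top 5%, 13 on 5000 UMIs, 22 without Nppb and 21 against cells with a score UMI. Genes lower, 58, became 36 on 5000 UMIs, 90 at equal weights and 34 against cells with a score UMI. Genes lower by diet, 63, became 117 with the top 5%, 41 with the top 20% and 100 at equal weights. In the order higher and lower in members, higher and lower by diet, a pseudocount of 20 CPM gave 15, 24, 81 and 25 genes, a filter of 5 CPM 59, 115, 221 and 108, a filter of 50 CPM 18, 23, 72 and 30, and a call at 2-fold 5, 15, 31 and 7. The mean of per-cell CPM gave 217 higher and 95 lower by diet. The count changes under other filters and folds follow from the genes compared; the cause of the others was not tested. The top 5%, top 20% and score changes were planned, and the comparison against cells with a score UMI was added after the data were seen. Of the score genes, Car6 and Cdsn had the fewest UMIs in serine/glycine-free members, 126 and 48.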

Other observations

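Of 5295 genes that reached a mean of 20 CPM in members and over all groups, 15 had diet ratios in members that differed by at least 1.5-fold from those in the other gate cells. Dcn was at -0.14 in members and 0.87 in the others on the log2 scale. Mmp3, described above, differed by more but fell under the limit in members. Hmox1, heme oxygenase 1, stood at 35.2 and 19.5 CPM in control and serine/glycine-free members and at 22.7 and 23.7 in the other gate cells. Hist1h1b, a linker histone gene, stood at 73.9 and 119 CPM in members and at 136 and 134 in the others. Ccl2, a monocyte chemokine, stood at 37.5 and 71.4 CPM in members and at 96.9 and 108 in the others. These differences were not tested, and the genes were singled out after their values were seen.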
